A study of Homo sapiens with 4 samples.

Results

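CXCL8, the gene of interleukin-8, and 9 other chemokine genes were followed in human renal epithelial cells with and without induction of the PRCC-TFE3 fusion. The set is CXCL8, CXCL1, CXCL2, CXCL3, CXCL5, CXCL6, CXCL16, CX3CL1, CCL2 and CCL20, which is 10 of the 34080 genes in the summed tables. It was chosen by name with the measured values of the same contrast known, so the differences between groups are given for these genes as a description, with no p-value and nothing concluded from how many pass a limit. HK-2, an immortalised human proximal tubule line, carried a Tet-On 3G construct that expresses HA-tagged PRCC-TFE3 when doxycycline is added. All 4 cultures grew in medium with 1.5% serum, tetracycline-free and with selection antibiotics per the study's methods. The Doxy(+) group received 0.2 microg/ml doxycycline for 24 h, the Doxy(-) group received none, and each group had 2 polyadenylated RNA libraries with the numbers 1 and 2. Nothing in the labels ties a number to a clone, line or day of culture, so the p-values below measure only the spread between these libraries, which may be technical. Libraries of transgene-free HK-2 cells with doxycycline were not analysed here, and effects of the drug and of PRCC-TFE3 cannot be told apart.

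Chemokines are small secreted proteins that attract leukocytes along a gradient. CXCL8 and the CXCL1, CXCL2, CXCL3, CXCL5 and CXCL6 proteins carry an ELR motif and recruit neutrophils through CXCR2, CCL2 recruits monocytes through CCR2, and CCL20 recruits cells that bear CCR6. CXCL16 and CX3CL1 differ from the rest because they are made as transmembrane proteins, which the metalloproteases ADAM10 and ADAM17 can release from the cell surface. In epithelial cells, interleukin-1, TNF and Toll-like receptors switch on many of these genes through NF-kB and AP-1, and AU-rich sequences in the 3′ part of the mRNAs shorten their life through ZFP36 and related proteins.

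Estimated counts summed to between 14042545 and 16618401 per library, of which 9.66% to 9.89% lay on transcript identifiers that could not be matched to a gene and stayed out of library sizes. TFE3, whose transcripts share sequence with the induced fusion, measured 66.9 and 69.0 CPM (estimated counts on genes relative to the TMM-adjusted library total) in Doxy(-) and 367 and 322 CPM in Doxy(+), a log2 fold change of 2.34 ± 0.072 (SE; edgeR quasi-likelihood test, adjusted p = 4.78e-05). PRCC measured 50.2 and 47.2 CPM in Doxy(-) and 47.7 and 60.1 CPM in Doxy(+), a log2 fold change of 0.15 (adjusted p = 0.413, edgeR). Leukocyte transcripts were near 0. Of 10 leukocyte markers, CD3E, FCGR3A, S100A8 and TYROBP had no count in any library, and the 10 together came to between 4.13 and 6.51 CPM per library. Of 10 endothelial and fibroblast markers, 3 had no count and the sum was 27.2 and 22.6 CPM in Doxy(-) and 20.5 and 19.0 CPM in Doxy(+), mostly COL1A1. The proximal tubule label was met only in part. PAX8 measured 565 to 605 CPM, whereas LRP2, AQP1 and HNF4A had at most 1 count in any library. The 17 renal tubule markers summed to 1359 and 1377 CPM in Doxy(-) and to 1285 and 1312 CPM in Doxy(+), with KRT8 and KRT18 lower and GGT1 higher past adjusted p 0.05.

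The proximal promoters of the set show which members share sequence near the start. The RefSeq promoter table for GRCh38.p14 held 7 of the 10 members, and the 100 bases from 150 to 51 bases upstream of the start are printed here because every match to the searched motifs lay in them. Capitals mark a match to 1 form of the NF-kB site, GGAANTTCC, or to the AP-1 site TGANTCA. The stretches are chr4:73740419-73740518 (plus strand) for CXCL8, chr4:73869243-73869342 (plus) for CXCL1, chr4:74099246-74099345 (minus) for CXCL2, chr4:74038740-74038839 (minus) for CXCL3, chr4:73998728-73998827 (minus) for CXCL5, chr4:73836528-73836627 (plus) for CXCL6 and chr2:227813692-227813791 (plus) for CCL20.
CXCL8: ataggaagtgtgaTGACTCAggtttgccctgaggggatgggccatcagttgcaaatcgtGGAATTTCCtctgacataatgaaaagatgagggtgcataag
CXCL1: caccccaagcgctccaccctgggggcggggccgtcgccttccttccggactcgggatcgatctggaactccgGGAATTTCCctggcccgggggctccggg
CXCL2: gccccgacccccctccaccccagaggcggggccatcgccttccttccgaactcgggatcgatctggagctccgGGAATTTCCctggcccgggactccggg
CXCL3: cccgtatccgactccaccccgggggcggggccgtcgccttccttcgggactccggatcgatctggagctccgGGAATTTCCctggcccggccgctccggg
CXCL5: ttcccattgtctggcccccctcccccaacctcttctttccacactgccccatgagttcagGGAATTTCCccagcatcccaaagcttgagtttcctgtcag
CXCL6: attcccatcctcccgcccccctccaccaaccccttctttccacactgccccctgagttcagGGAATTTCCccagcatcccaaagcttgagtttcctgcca
CCL20: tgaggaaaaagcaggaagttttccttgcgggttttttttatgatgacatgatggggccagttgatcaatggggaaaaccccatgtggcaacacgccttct

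In the 6 neutrophil-attracting genes the NF-kB match was the same 9 letters, GGAATTTCC, and began between 91 and 77 bases upstream of the start. CCL20 had no match to GGAANTTCC, but other forms of the NF-kB site were not searched, so such a site in CCL20 is not excluded. Over all 34943 promoters of the table, 0.964% held a match to GGAANTTCC on either strand. An AP-1 match was found in CXCL8 alone among the 7, beginning 137 bases upstream, against 7.72% of all promoters. The E-box CANGTG, which includes the core that TFE3 and its relatives bind, was found in CCL20 alone, as CATGTG (not in capitals above) beginning 70 bases upstream, against 42.0% of all promoters. These motifs did not overlap one another. A match is a description of letters, and binding was not measured in these libraries.

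**Figure D1:**
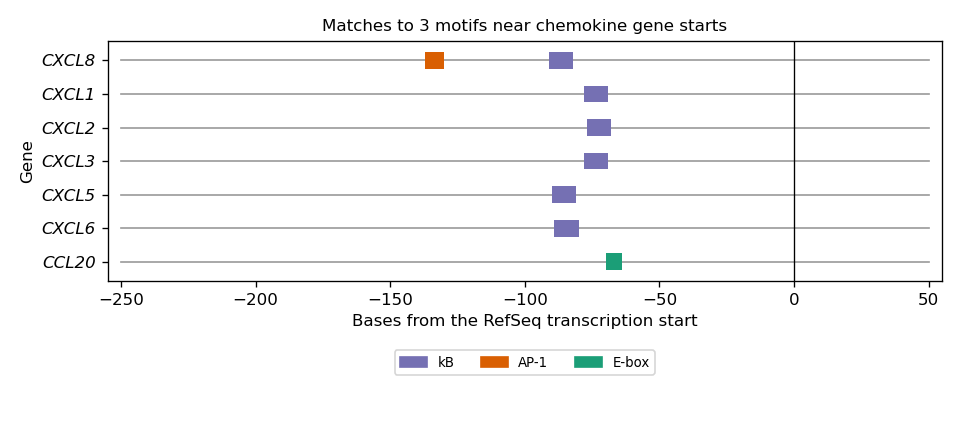
Matches to 3 motifs (NF-kB, AP-1 and E-box) are drawn along the RefSeq promoter entries of 7 chemokine genes, with the horizontal axis in bases from the transcription start. The NF-kB match begins between 91 and 77 bases upstream in all 6 neutrophil-attracting CXC genes, the AP-1 match is in CXCL8 alone and the E-box match in CCL20 alone.

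Close likeness was limited to 2 groups of the printed stretches. Over the length of the alignment, gaps included, CXCL1, CXCL2 and CXCL3 were 85.3% to 88.1% identical to one another. CXCL5 and CXCL6 were 90.1% identical. CXCL8 was 44.1% to 49.6% identical to each of the other 6, and CCL20 was 38.6% to 45.5% identical to each of the other 6. Between the 2 groups, identity was 48.7% to 53.0%. The identity of promoter stretches from unrelated genes was not measured.

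The mRNAs of the set also differ in AU-rich sequence. The nonamer TTATTTATT, a core of the element that ZFP36 binds, occurred after the stop codon in 5 of the 10 members (overlapping matches counted), against 8.5% of 19229 coding genes in GENCODE 44. There were 5 copies in CXCL2, 3 in CXCL1, and 1 each in CXCL8, CXCL3 and CX3CL1, and none in CXCL5, CXCL6, CXCL16, CCL2 or CCL20. The shorter pentamer ATTTA occurred 11 times in CXCL5, 10 in CXCL2, 9 in CXCL8, 7 in CXCL3, 6 each in CXCL1 and CXCL6, 3 in CCL20, 2 in CX3CL1 and 1 each in CXCL16 and CCL2, against a median of 2 per coding gene. Windows of 29 bases around a nonamer, in capitals, are printed for the 3 members with the nonamer and the largest differences between groups, at chr4:73742664-73742692 (plus) in CXCL8, chr4:74097590-74097618 (minus) in CXCL2 and chr4:74036773-74036801 (minus) in CXCL3 on hg38.
CXCL8: atgtaaagtaTTATTTATTtgaatctaca
CXCL2: agtcttctatTTATTTATTtatttattta
CXCL3: atgtcagttgTTATTTATTcaaattatct

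Of the 10 members, 7 passed the low-count filter, and 6 of these had a lower mean level in Doxy(+). Their median log2 fold change was -0.63, against 0.00 over all 13569 genes tested. At an adjusted p under 0.05 there were 4 members lower (CXCL8, CXCL2, CXCL3 and CCL20), where 9.53% of all tested genes were lower, and 1 higher (CXCL16), where 9.76% were higher. When the log2 fold change also had to exceed 1 in size, 3 were lower (CXCL8, CXCL3 and CCL20), where 0.479% of all tested genes were, and 0 were higher, where 1.5% were. The number called lower was 3 in 4 of the 15 processing alternatives, 2 (CXCL8 and CCL20) in 10 of them and 1 (CXCL8) in 1. These counts come from the contrast the set was chosen on, and CXCL1, CXCL6 and CCL2 are not in them because they had too few counts.

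**Figure D2:**
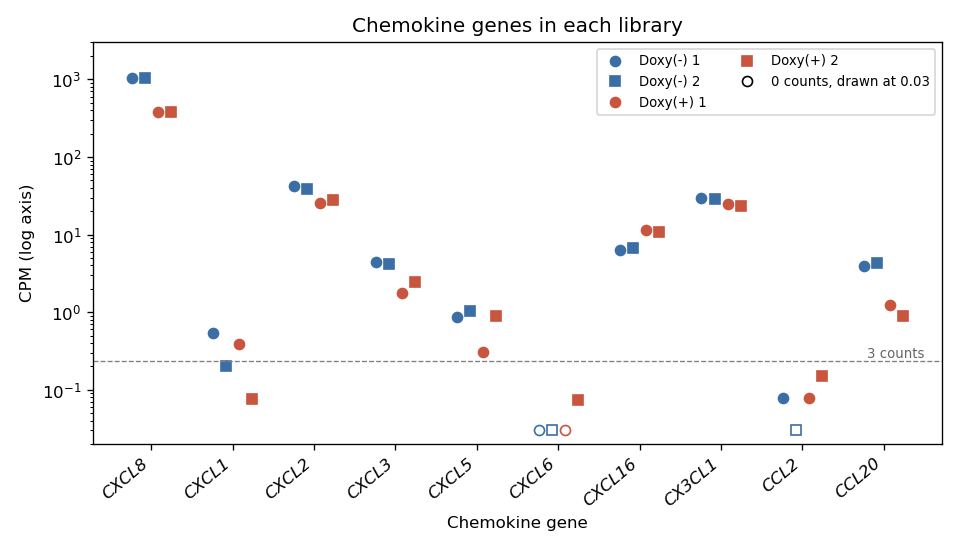
CPM on a log axis is plotted for 10 chemokine genes in each of 4 libraries, circles for number 1 and squares for number 2, with open symbols for 0 counts and a dashed line at 3 counts. CXCL8 lies near 1040 CPM in Doxy(-) and 382 CPM in Doxy(+), CCL20 and CXCL3 are separated in the same direction, CXCL16 in the other, and CXCL1, CXCL6 and CCL2 lie around or under 3 counts.

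CXCL8 (ENSG00000169429.12, chr4:73740519-73743716, plus strand, hg38) was the highest chemokine in every library. It measured 1040 and 1030 CPM in Doxy(-) and 382 and 382 CPM in Doxy(+), from 13403, 15131, 4917 and 5133 estimated counts. The groups were far apart and the libraries of a group were nearly equal, at 1035 ± 7.17 and 382 ± 0.292 CPM (SD, n = 2). The Doxy(+) mean was 36.9% of the Doxy(-) mean, a log2 fold change of -1.44 ± 0.0274 (SE). On the length-corrected TPM scale CXCL8 stood at 969 and 956 in Doxy(-) and at 372 and 371 in Doxy(+). That placed it 135th among coding genes in both Doxy(-) libraries and 307th and 309th in Doxy(+).

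The difference in CXCL8 was not a shift between its transcripts. The full-length coding transcript CXCL8-201 took 97.5% and 97.4% of the gene's counts in Doxy(-) and 96.5% in each Doxy(+) library. The shorter coding transcript CXCL8-202 held 261, 295, 138 and 148 counts, and the retained-intron transcript CXCL8-203 held 70.0, 103, 33.0 and 28.9 counts, in the order Doxy(-) 1 and 2, Doxy(+) 1 and 2. Each of the 3 transcripts was thus lower in both Doxy(+) libraries than in both Doxy(-) libraries. No 75-base word of CXCL8-201, the read length, occurred in another gene's canonical transcript.

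CXCL2 (ENSG00000081041.9, chr4:74097040-74099196, minus strand), a neutrophil attractant, came second in level. It measured 42.3 and 39.3 CPM in Doxy(-) and 25.4 and 27.6 CPM in Doxy(+), without overlap. The Doxy(+) mean was 65.1% of the Doxy(-) mean, a log2 fold change of -0.62 ± 0.0772 (SE). Its main coding transcript, CXCL2-202, took 83.5% to 88.6% of the gene's counts, and 2.5% of its 75-base words were shared with CXCL1 or CXCL3.

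CXCL3 (ENSG00000163734.4, chr4:74036589-74038807, minus strand), its close relative, was about an order of magnitude rarer. CXCL3 measured 4.44 and 4.16 CPM in Doxy(-) and 1.74 and 2.46 CPM in Doxy(+), and the groups did not overlap. The log2 fold change was -1.03 ± 0.266 (SE), with the Doxy(+) mean at 48.8% of the Doxy(-) mean. The value sits just past the limit of 1 and its call was lost when any 1 of the 4 libraries was left out, with values from -0.80 without Doxy(+) 1 to -1.32 without Doxy(+) 2. The division of its counts among transcripts was unstable, since CXCL3-201 took 36.4% and 57.4% in Doxy(-) and 84.4% and 33.0% in Doxy(+), and only the gene total is described.

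The other 3 neutrophil attractants were at the edge of detection. CXCL5 (chr4:73995642-73998677, minus strand) had 11 and 15 counts in Doxy(-) and 4 and 12 counts in Doxy(+), or 0.853, 1.02, 0.311 and 0.895 CPM. Its groups overlapped, and its log2 fold change of -0.63 ± 0.565 (SE) became -0.07 without Doxy(+) 1 and -1.57 without Doxy(+) 2. CXCL1 (chr4:73869393-73871308, plus strand) had 7 and 3 counts in Doxy(-) and 5 and 1 counts in Doxy(+), all on CXCL1-202, a transcript with no defined coding sequence, while its coding transcript CXCL1-201 was at 0 in every library. CXCL6 (chr4:73836640-73849064, plus strand) had 0, 0, 0 and 1 counts. A library in which a gene had no count could still hold it at up to 3 counts, which was 0.204 to 0.233 CPM depending on the library, for counting error only. No difference between groups was detectable in these genes at this depth. CXCL1, CXCL5 and CXCL6 hold the same NF-kB letters as CXCL8. Their counts were too few to show whether genes with this match differed between groups, and a link was not tested.

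CCL20 (ENSG00000115009.13, chr2:227805739-227817564, plus strand), the ligand of CCR6, had the most negative log2 fold change of the tested members. It measured 3.96 and 4.29 CPM in Doxy(-) and 1.24 and 0.894 CPM in Doxy(+), from 51, 63, 16 and 12 counts. Both Doxy(+) libraries were well under both Doxy(-) libraries. The Doxy(+) mean was 25.9% of the Doxy(-) mean, a log2 fold change of -1.94 ± 0.290 (SE), with a wide error because the counts were few. Its call was lost when unmatched transcript identifiers entered the test as features of their own, with the value at -1.94. CCL2 (chr17:34255274-34257208, plus strand), the monocyte attractant, had 1, 0, 1 and 2 counts, so no comparison could be made.

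The 2 transmembrane chemokines did not share a direction. CXCL16 (ENSG00000161921.17, chr17:4733533-4739928, minus strand), the ligand of CXCR6, measured 6.38 and 6.63 CPM in Doxy(-) and 11.5 and 10.9 CPM in Doxy(+). It was higher in both Doxy(+) libraries, by 1.72-fold, with a log2 fold change of 0.79 ± 0.132 (SE). Its exons overlap those of MED11 on the other strand, which is itself expressed at 12.05 CPM on average, and although the library kit was stranded, use of strand in the counting is not given in the sources used here. Its transcripts traded counts between libraries, with CXCL16-201 at 87.2%, 20.9%, 54.3% and 44.1% of the gene, and the gene total is the firmer value. CX3CL1 (ENSG00000006210.7, chr16:57372477-57385044, plus strand), the ligand of CX3CR1, measured 30.0 and 29.0 CPM in Doxy(-) and 25.1 and 23.2 CPM in Doxy(+). Its groups did not overlap, and the Doxy(+) mean was 81.9% of the Doxy(-) mean, a log2 fold change of -0.29 ± 0.0788 (SE).

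On the TPM scale, which allows levels of different genes to be set side by side, the order in Doxy(-) was CXCL8 at a mean of 963, CXCL2 at 63.5, CX3CL1 at 13.5, CCL20 at 8.29, CXCL3 at 7.03 and CXCL16 at 6.58, followed by CXCL1 at 1.13, CXCL5 at 0.549, CCL2 at 0.0866 and CXCL6 at 0. In Doxy(+), CXCL8 stood at 372, CXCL2 at 41.2, CX3CL1 at 10.8, CXCL16 at 10.7, CXCL3 at 3.61 and CCL20 at 2.23, followed by CXCL1 at 0.719, CXCL5 at 0.364, CCL2 at 0.261 and CXCL6 at 0.0338. CCL20 stood above CXCL3 and CXCL16 in Doxy(-) and under both in Doxy(+). In Doxy(-) the libraries of CXCL16, at 5.13 and 8.03 TPM, overlapped those of CCL20 and CXCL3, and in Doxy(+) CXCL16, at 9.93 and 11.5 TPM, overlapped CX3CL1 at 11.2 and 10.4 TPM, so these neighbours in the order did not differ beyond their spread. CXCL8 made up 90.4% and 90.6% of the summed TPM of the 10 members in Doxy(-) and 84.8% and 83.6% in Doxy(+), while that sum was 1071 and 1055 TPM in Doxy(-) and 439 and 444 TPM in Doxy(+). The total was therefore largely the level of CXCL8. In bulk RNA, fewer cells that make a transcript and less transcript per cell cannot be told apart.

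The 6 ELR chemokine genes lie together on chromosome 4, within 358.7 kb from the left end of CXCL8 to the right end of CXCL2. Of the 16 genes of the tables in that window, 4 passed the low-count filter, and all 4 were members (CXCL8, CXCL2, CXCL3 and CXCL5). PF4, PF4V1 and PPBP, the platelet chemokines of the same cluster, were at 0 in every library. Within 500 kb on either side there were 12 genes, of which 6 were tested. EREG, the growth factor epiregulin, measured 117 and 136 CPM in Doxy(-) and 53.7 and 50.5 CPM in Doxy(+), a log2 fold change of -1.28 ± 0.0854 (SE; adjusted p = 0.000447, edgeR), and was singled out after its value was seen. The other 5, ANKRD17, AFP, RASSF6, MTHFD2L and AREG, did not pass the test, at log2 fold changes of 0.06, -0.35, 0.19, -0.26 and -0.08. The SE of AREG was wide, at 1.27.

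**Figure D3:**
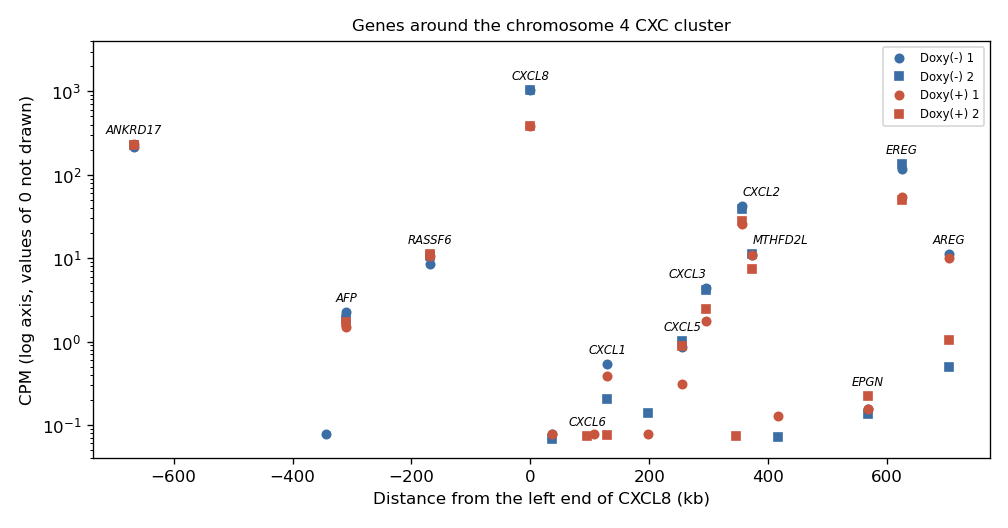
CPM on a log axis is plotted against distance in kb from the left end of CXCL8 for the genes in and around the chromosome 4 chemokine cluster, with 1 symbol per library. Within the cluster CXCL8, CXCL3 and CXCL2 have both Doxy(+) libraries under both Doxy(-) libraries. Among the flanking tested genes, EREG and AFP do as well, whereas ANKRD17 and RASSF6 have both Doxy(+) libraries above both Doxy(-) libraries. Of these flanking genes only EREG passed the test. The share of all genes without overlap between groups was not counted.

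Apart from CCL28, the other ligands in the tables and the receptors had few or no counts. Of 36 further chemokine ligands listed, 27 were in the tables, 18 were at 0 in every library and 2 could be tested. The level of the ligands not in the tables is unknown. CCL28, a mucosal chemokine, measured 8.10 and 9.40 CPM in Doxy(-) and 8.50 and 7.61 CPM in Doxy(+), and CCL22 0.975, 0.814, 0.624 and 0.658 CPM, and neither passed the test (log2 fold changes -0.12 and -0.49, adjusted p = 0.629 and 0.479, edgeR). Of 23 chemokine receptors, 11 were at 0 in every library, CXCR1 and CX3CR1 among them. CXCR2, the main receptor of CXCL8 beside CXCR1, had 2, 0, 1.04 and 0 estimated counts. CCR10 and CCR4 were the 2 tested receptors, at log2 fold changes of 0.74 and 0.54, and neither passed (adjusted p = 0.203 and 0.45, edgeR).

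**Figure D4:**
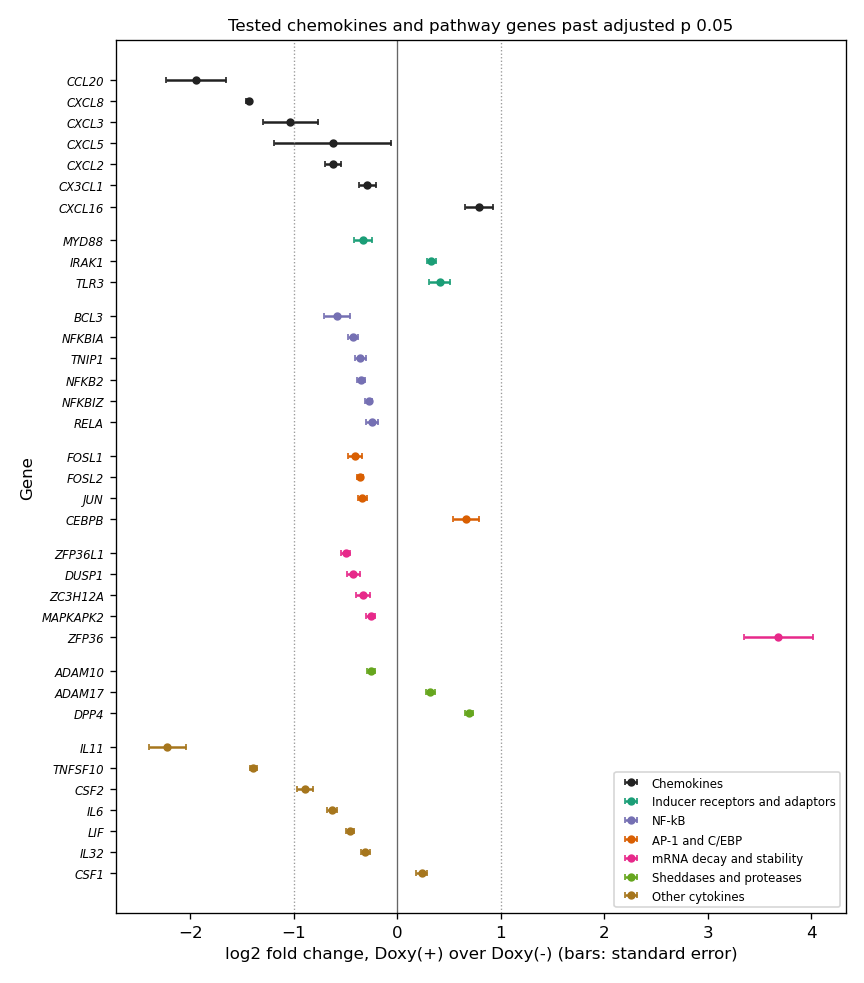
Log2 fold changes of Doxy(+) over Doxy(-) with standard errors are plotted for the 7 tested chemokines and for the 28 genes of the pathway lists past an adjusted p of 0.05, with dotted lines at a log2 fold change of 1 in either direction. Most values lie to the left of 0, the most negative being IL11 at -2.22 and CCL20 at -1.94, and ZFP36 stands apart at 3.68.

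The signals that induce chemokines were described with lists of 147 non-member genes in all, of which 79 were tested. Of these, 21 were lower and 7 higher past the adjusted p, beside the 9.53% lower and 9.76% higher of all tested genes. The fold limit as well was passed by 3, beside 0.479% lower and 1.5% higher of all tested genes. The lists were chosen with earlier results of these data known, so these counts are a description and nothing is concluded from them. Among 23 inducer cytokines, receptors and adaptors, 18 were tested, 1 was lower and 2 were higher. MYD88, the adaptor of interleukin-1 and Toll-like receptors, was lower at 25.3 and 28.1 CPM in Doxy(-) and 21.3 CPM in each Doxy(+) library (log2 fold change -0.33, adjusted p = 0.0494, edgeR). IRAK1, a kinase of the same pathway, rose from 144 and 140 CPM to 174 and 182 CPM (0.33, adjusted p = 0.0043, edgeR), and TLR3, a sensor of double-stranded RNA, from 12.1 and 12.7 CPM to 16.8 and 16.1 CPM (0.41, adjusted p = 0.0378, edgeR). The inducing cytokines themselves, named here for their role, were scarce, with 0, 0, 0 and 1 counts for IL1B and 8, 5.62, 4.99 and 4.14 estimated counts for TNF. IL1A had 6, 10, 15 and 19 counts, or 0.465, 0.680, 1.17 and 1.42 CPM, with both Doxy(+) libraries above both Doxy(-) libraries, and did not pass (log2 fold change 1.15 ± 0.422 SE, adjusted p = 0.116, edgeR). The median log2 fold change of the 18 tested genes was 0.02.

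NF-kB genes that passed the test were all lower. Of the 16 genes of this list, all tested, 6 were lower, none was higher and 10 did not pass, and the median log2 fold change was 0.03. Over all tested genes, 9.53% were lower and 9.76% higher. Among the 10, CYLD, TNFAIP3, NFKBIE, RELB, CHUK, NFKBIB and REL had both Doxy(+) libraries above both Doxy(-) libraries. IKBKB had both under, and the others overlapped. NFKBIA, the inhibitor that NF-kB itself induces, fell from 141 and 147 CPM to 105 and 109 CPM (-0.43 ± 0.0455 SE, adjusted p = 0.00222, edgeR). NFKB2, the p100 and p52 subunit gene, fell from 201 and 203 CPM to 155 and 161 CPM (-0.35, adjusted p = 0.00236, edgeR). NFKBIZ, a nuclear cofactor whose exons overlap NXPE3 on the same strand, fell from 350 and 365 CPM to 295 CPM in both Doxy(+) libraries (-0.28, adjusted p = 0.00373, edgeR). TNIP1, BCL3 and RELA were the other 3, at -0.36, -0.58 and -0.24. These differences were all smaller in size than those of CXCL8, CXCL3 and CCL20. TNFAIP3, another feedback inhibitor, measured 46.2, 45.5, 52.9 and 51.2 CPM and did not pass (adjusted p = 0.0711, edgeR).

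Of 11 AP-1 and C/EBP factors, 10 were tested, 3 were lower and 1 was higher, with a median log2 fold change of -0.09. FOSL2 fell from 573 and 559 CPM to 439 and 443 CPM (-0.36, adjusted p = 0.000898, edgeR), JUN from 299 and 279 CPM to 226 and 232 CPM (-0.34, adjusted p = 0.00453, edgeR) and FOSL1 from 72.6 and 78.7 CPM to 54.6 and 59.6 CPM (-0.41, adjusted p = 0.0115, edgeR). All 3 encode partners in AP-1 dimers. CEBPB, which encodes a C/EBP factor, went the other way, from 50.1 and 40.7 CPM to 65.4 and 78.6 CPM (0.67, adjusted p = 0.0158, edgeR).

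The genes for mRNA decay and stability included the only called increase in the lists. All 12 were tested, 4 were lower and 1 was higher, and the median log2 fold change was -0.07. ZFP36, which encodes tristetraprolin, measured 0.598 and 0.714 CPM in Doxy(-) and 6.72 and 10.3 CPM in Doxy(+), a log2 fold change of 3.68 ± 0.332 (SE; adjusted p = 0.0012, edgeR). Its counts lay on different transcripts in different libraries. In Doxy(-) nearly all were on the short ZFP36-201, with 7.71 and 10.4 counts, whereas Doxy(+) 1 had 82.3 counts on ZFP36-203 and Doxy(+) 2 had 131 counts on ZFP36-202, transcripts that were at or near 0 in Doxy(-). These transcripts are longer, and the length-corrected difference was smaller, at 1.45 and 1.71 TPM in Doxy(-) and 6.40 and 10.3 TPM in Doxy(+). The log2 fold change of ZFP36 was 1.82 on log2(TPM + 1), 2.29 on log2(TPM + 0.1) and 2.35 with length-scaled counts, past both limits in each. ZFP36L1, its far more abundant relative, fell from 528 and 567 CPM to 393 and 382 CPM (-0.50 ± 0.0426 SE, adjusted p = 0.00102, edgeR). DUSP1, a phosphatase that acts on the p38 kinase, fell from 55.2 and 54.4 CPM to 42.3 and 39.5 CPM (-0.42, adjusted p = 0.00596, edgeR), and MAPKAPK2 and ZC3H12A were lower by the same test, at -0.26 and -0.33.

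Proteases that release or trim chemokines moved in both directions, with 1 of 8 tested genes lower and 2 higher, and a median log2 fold change of -0.21. DPP4, which removes the first residues of several chemokines, rose from 172 and 180 CPM to 281 and 287 CPM (0.69 ± 0.0389 SE, adjusted p = 0.000281, edgeR). ADAM17 rose from 101 and 103 CPM to 130 and 125 CPM (0.32, adjusted p = 0.00576, edgeR), although its exons overlap IAH1 on the other strand. ADAM10 fell from 195 CPM in both Doxy(-) libraries to 162 and 164 CPM (-0.25, adjusted p = 0.00522, edgeR).

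Of 16 other secreted cytokines, 11 were tested, 6 were lower, 1 was higher and 4 did not pass, with a median log2 fold change of -0.35. IL11 fell from 18.6 and 20.8 CPM to 3.51 and 4.90 CPM (-2.22 ± 0.176 SE, adjusted p = 0.00078, edgeR), and TNFSF10, which encodes the death ligand TRAIL, fell from 494 and 502 CPM to 186 and 193 CPM (-1.39 ± 0.0340 SE, adjusted p = 3.35e-05, edgeR). IL6, which overlaps STEAP1B on the other strand, fell from 232 and 240 CPM to 158 and 146 CPM (-0.63, adjusted p = 0.000681, edgeR). CSF2 and LIF, named after their values were seen, were lower at -0.89 and -0.46 (adjusted p = 0.000914 for both, edgeR), IL32 was lower at -0.31 and CSF1 was higher at 0.24. The AU-rich nonamer was present in IL11 in 6 copies, in CSF2 in 3 and in LIF in 2, and absent from IL6 and TNFSF10. Of all coding genes, 8.5% held it. The shorter ATTTA occurred 9 times in IL11, 8 in CSF2, 7 in LIF, 6 in IL6 and 2 in TNFSF10. Those of IL6 lay within 425 bases after the stop codon. Only these cytokines of the list, all of them lower, were searched for either sequence. CSF1, IL32 and the cytokines that did not pass were not searched, so these counts allow no comparison with them. A link between these sequences and the differences was not tested.

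**Figure D5:**
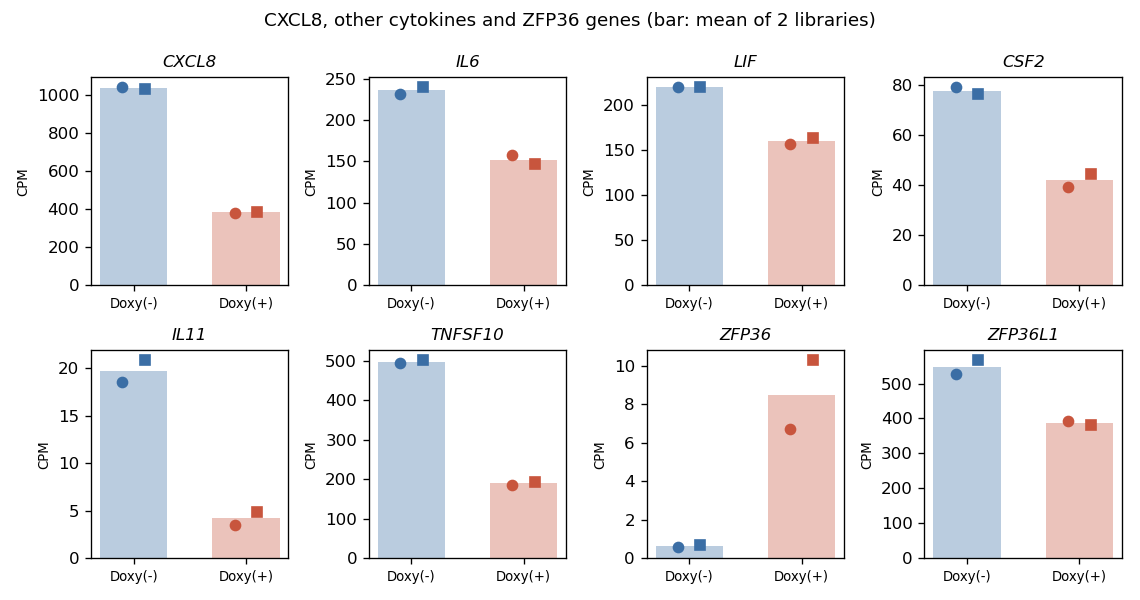
CPM is plotted for CXCL8, 5 other cytokine genes, ZFP36 and ZFP36L1, with a bar at the mean of the 2 libraries of each group and a point for each library, on axes that start at 0. In each panel but that of ZFP36 both Doxy(+) points lie under both Doxy(-) points. The 5 other cytokine genes drawn are among those that passed the test as lower, so they do not stand for the whole list. CSF1, which passed as higher, and the 4 tested cytokines that did not pass are not drawn.

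The genes whose pattern over the 4 libraries was most like that of CXCL8 were sought by the root mean square distance of centred log2 CPM, among the 9610 genes whose mean reached 10 CPM. Those nearest and reported here were TNFSF10 at 0.0305, SLCO2A1, a prostaglandin transporter, at 0.0605, VCAM1, an adhesion molecule for leukocytes, at 0.0773, and INHBA, the activin A subunit, at 0.0814. Their log2 fold changes ran from -1.54 for SLCO2A1 to -1.31 for INHBA, around the -1.44 of CXCL8. With 4 libraries in 2 groups, likeness of this kind says that the group difference is of like size and the replicates close.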

How the data were processed

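Polyadenylated RNA of 4 HK-2 cultures, 2 Doxy(-) and 2 Doxy(+), was measured by single-end 75-base sequencing with a stranded library kit. The submitters' processing notes name Trim Galore 0.6.6, cutadapt 2.5, STAR 2.7.9a and hg38, and the study's methods add RSEM, a UCSC hg38 annotation and DESeq2. The tables, however, list Ensembl transcripts in kallisto's column layout, and for them the quantifier's version, the annotation release and the use of strand in counting are not given in the sources used here. The authors deposited an estimated count, which divides a read among the transcripts it fits, and a TPM value for each of 180253 transcript identifiers. Of these, 150691 (83.6%) matched GENCODE 44 and were summed into 34080 genes, and sums were rounded. Effective lengths did not differ between libraries.

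Groups were compared with edgeR 4.0.16 in R 4.3.3 (glmQLFit and glmQLFTest, TMM, filterByExpr, group as the only term, 13569 genes) with Benjamini-Hochberg adjustment over all of them, and the standard error is that implied by the F statistic. A gene passed at an adjusted p under 0.05 and was called where its log2 fold change also exceeded 1 in size. The fit was tested on simulated data. The members and the lists were chosen with earlier results of these data known. The genes named were TFE3 and PRCC, the 10 members, from each list every called gene and the 3 tested genes with the smallest p, any member of a list with fewer than 6 detected, and the 5 genes nearest to CXCL8, of which 1 is not reported here; others are marked as chosen after their values were seen or named for their place or role. Alternatives used DESeq2 1.42.0 and limma 3.58.1 on log2(TPM + 1) and log2(TPM + 0.1), other scalings and filters, length-scaled counts, the unmatched identifiers, a replicate block and each library left out. Promoters came from RefSeq and sites after the stop codon from GENCODE 44. Of 147 listed pathway genes, 137 were in the tables, and the others were not analysed here.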

Additional observations from a re-analysis of the deposited data

How the results depend on the processing

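CXCL8, CXCL2, CXCL16 and CX3CL1 kept their direction in all 15 alternatives, in each of which CXCL8 was called (both limits) and the other 3 were not, with log2 fold changes from -1.45 to -1.37, -0.68 to -0.56, 0.65 to 0.82 and -0.36 to -0.23. CXCL5 was tested in 12 and ran from -1.57 to -0.07. CCL20 ran from -2.20 to -1.53 and lost its call only when unmatched identifiers entered the test as features of their own, a setting with 19901 features. CXCL3 ran from -1.32 to -0.80 and kept its call in 4 and lost it in 11. Called lower were thus 3 members in the reported fit and 1, CXCL8, in that same setting. ZFP36 ran from 1.82 on log2(TPM + 1) to 3.96, IL11 from -2.49 to -2.0 and TNFSF10 from -1.42 to -1.32, all past the limits throughout.

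The numbers 1 and 2 were not taken as pairs, since the deviations of same-numbered libraries from their group means had a correlation of -0.0147. With a replicate block CXCL3 stood at -1.05 and was no longer called, and 68 genes were called lower and 204 higher over all genes, against 65 and 203 without it. Over all genes the counts called lower and higher were 32 and 117 by limma on log2(TPM + 1), 34 and 134 on log2(TPM + 0.1) and 34 and 124 at an adjusted p under 0.01. Few counts limit CXCL5, CCL20 and CXCL3, and at no more than 7 counts CXCL1, CXCL6 and CCL2 could not be compared.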

Other observations

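AREG, the growth factor amphiregulin that lies beside EREG near the chemokine cluster, differed more between libraries of different number than between groups. It measured 11.3 CPM in Doxy(-) 1 and 9.99 CPM in Doxy(+) 1, and 0.494 CPM in Doxy(-) 2 and 1.03 CPM in Doxy(+) 2. It was singled out after its values were seen.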
